A study of Mus musculus with 4 samples.

Results

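The skeletal myogenic genes described here are 10 genes of the skeletal muscle programme, namely Myod1, Myog, Myf5, Pax7, Cdh15, Chrna1, Actc1, Acta1, Myh3 and Tnnt1. They were chosen by name, and all of their exons in the deposited exon table were taken. Of the 10 genes, 9 had at least 1 listed exon, with 81 exons in all, among 22835 genes and 226463 exons. Myf5, at chr10:107482908-107486134 on the minus strand (mm10), had none of its 3 annotated exons in the list, so no level is given for it.

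RNA-seq was made from 3 kinds of mouse embryonic fibroblast (MEF) used here, with 1 library each. The Dox (-) and Dox (+) cells carried M-Mitf, the melanocyte isoform of the transcription factor MITF, under a tetO promoter at Col1a1, together with rtTA at ROSA26. They came from chimeric embryos made with 1 correctly targeted ES cell clone and were at passage 5, either without doxycycline (Dox (-)) or after 6 days of it (Dox (+)). The library labelled MEF was from wild-type fibroblasts at passage 3, which carry neither transgene, so genotype and passage cannot be told apart in any comparison with it.

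Skeletal muscle is built by a cascade of transcription factors. PAX7 marks the stem cells, MYF5 and MYOD1 commit cells to the lineage, and myogenin (MYOG) drives them to differentiate and fuse. The fibres then make sarcomeric actin, myosin and troponin together with the acetylcholine receptor of the motor end plate. Fibroblasts are not known for this programme, although MYOD1 can force them into it, and stressed fibroblasts make actins and other contractile proteins of the smooth muscle type.

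Values are RPKM, in which the reads on an exon are scaled to its length in kb and to library size. A gene's highest-exon level is the largest RPKM among its exons, the definition used in the study. A gene's summed level is the RPKM of the reads added over non-overlapping listed exons, which compares genes per length but counts a read that crosses a junction on each exon it touches. Reads were recovered as whole numbers, with 1 RPKM on 1 kb worth 45, 45 and 44 reads in MEF, Dox (-) and Dox (+). Intervals are exact 95% intervals that cover counting error only, up to 3 reads was taken as the floor, and with 1 library per group no difference has a replicate check.

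Mitf RNA was highest after doxycycline, with a highest-exon level of 1.52, 30.8 and 1544 RPKM in MEF, Dox (-) and Dox (+). Reads of the transgene were not told apart from those of the endogenous gene, and Dox (-) was already 20.2-fold above MEF. Fibroblast collagens were high in each library but not steady, with Col1a1 at 4958, 12562 and 2301 RPKM in MEF, Dox (-) and Dox (+). Between Dox (-) and Dox (+), falls beyond 4-fold were seen in 4 of 10 fibroblast genes and such rises in 0. From MEF to Dox (-), such rises were seen in 3 of the 10 and such falls in 0. All 8 macrophage markers were highest in Dox (-), and their summed levels added up to 24.8 RPKM in MEF, 6175 in Dox (-) and 238 in Dox (+). Dox (-) thus held far more macrophage marker RNA than both other libraries, and the part of this in the results below was not tested.

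Acta1, the actin of the skeletal muscle thin filament, was the member with by far the most reads, and its sequence is shown first because the actin genes resemble each other closely. The exon that gave its highest-exon level is 182 bp long, wholly coding and at chr8:123892229-123892410 on the minus strand. It is set beside the exons of the same length of Actc1, the cardiac actin (chr2:114048123-114048304, minus strand), and of Acta2, the smooth muscle actin (chr19:34243317-34243498, minus strand), from GENCODE M21 transcripts on GRCm38. Capitals mark bases that differ from Acta1.
Acta1: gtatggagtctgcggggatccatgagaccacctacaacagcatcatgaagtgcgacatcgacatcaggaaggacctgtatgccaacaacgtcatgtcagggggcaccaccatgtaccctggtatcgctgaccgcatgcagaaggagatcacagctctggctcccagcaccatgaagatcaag
Actc1: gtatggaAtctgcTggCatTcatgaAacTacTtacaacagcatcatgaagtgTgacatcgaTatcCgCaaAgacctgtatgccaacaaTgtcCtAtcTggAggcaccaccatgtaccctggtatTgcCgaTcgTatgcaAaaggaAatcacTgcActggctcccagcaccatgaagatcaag
Acta2: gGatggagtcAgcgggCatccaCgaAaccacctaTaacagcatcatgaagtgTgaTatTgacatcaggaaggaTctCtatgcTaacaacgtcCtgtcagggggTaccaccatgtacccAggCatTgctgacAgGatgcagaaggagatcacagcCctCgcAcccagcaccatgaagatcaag
Actc1 differed from Acta1 at 25 of the 182 bases and Acta2 at 22. The longest run of identical bases was 27 with Actc1 and 21 with Acta2. Over the 7 listed exons of Acta1, 28 of 1103 windows of 50 bases, or 2.54%, also occurred in the transcripts of another of the 6 actin genes compared. All 28 windows lay in the third exon, which shared a run of 77 bases with the cytoplasmic actin Actb.

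Acta1 (chr8:123891769-123894751, minus strand) rose from library to library. Its highest-exon level was 20.5 RPKM in MEF (168 reads), 80.7 in Dox (-) (661 reads) and 372 in Dox (+) (2981 reads). The level in Dox (+) was 4.61-fold that in Dox (-) (95% interval 4.24 to 5.03) and 18.1-fold that in MEF (15.5 to 21.3). Dox (-) stood 3.93-fold above MEF (3.32 to 4.69), just under the 4-fold mark used here. These differences are far larger than counting error, and the counting intervals of the 3 libraries do not overlap. Without replicate libraries, the spread between cultures of the same kind is not known, and whether the differences exceed it was not tested.

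Each of the 7 listed exons of Acta1 showed the same order, MEF below Dox (-) below Dox (+). From Dox (-) to Dox (+) the exons rose by between 4.61-fold and 6.95-fold, and from MEF to Dox (-) by between 3.41-fold and 6.16-fold. The noncoding first exon, of 60 bp, held 14.3, 63.2 and 365 RPKM, and the last exon, of 384 bp with the 3′ end of the mRNA, held 6.97, 23.8 and 120 RPKM. The third exon, the one that shares 50-base windows with other actins, rose 5.78-fold from Dox (-) to Dox (+), within the range of the others. Exons of 1 gene share their reads and are not replicates.

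**Figure D1:**
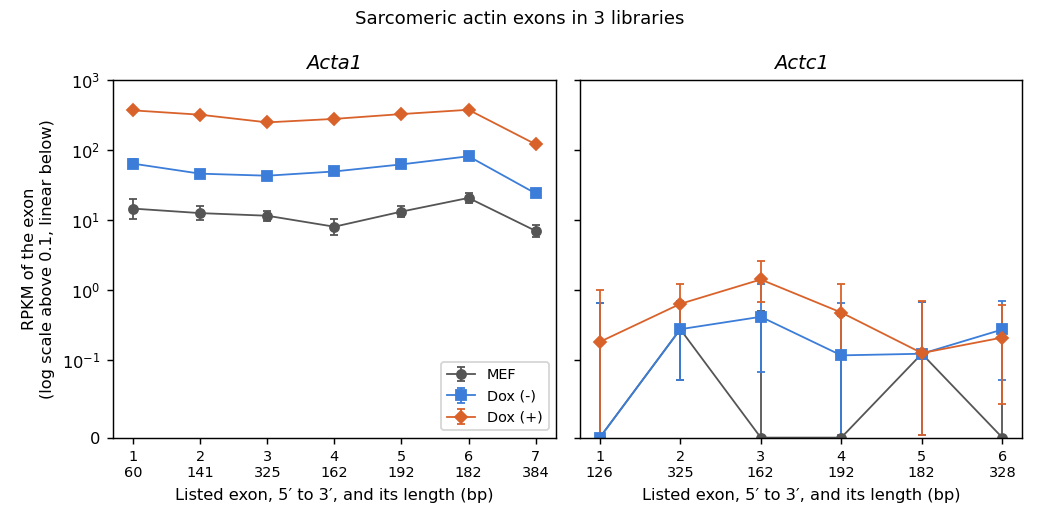
RPKM of each listed exon of Acta1 (7 exons) and Actc1 (6 exons), numbered 5′ to 3′ with their lengths in bp, in MEF, Dox (-) and Dox (+); the vertical axis is logarithmic above 0.1 and linear below, and bars are 95% counting intervals. The Acta1 lines are separate and ordered on all 7 exons, with 372 RPKM at the highest point, whereas no Actc1 exon exceeded 1.40 RPKM.

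By the rule of more than 10 RPKM in 1 of the libraries and more than 4-fold, Acta1 was the 1 member called higher in Dox (+) than in Dox (-), of 2 members tested, beside 1.64% of the 13307 genes tested, while no member was called lower, beside 5.41%. It was also the 1 member called higher in Dox (+) than in MEF, beside 6.55% of 12941 genes, and again no member was called lower, beside 3.4%. No member was called from MEF to Dox (-) on the highest exon, where 8.26% of 13234 genes were called higher and 1.21% lower. On summed levels of 11.4, 46.8 and 254 RPKM, Acta1 passed in all 3 comparisons, by 5.42-fold, 4.09-fold and 22.2-fold, beside 1.07%, 5.96% and 4.36% of all genes. No member was called lower on that measure, beside 4.02%, 0.868% and 2.67% of genes. The median of all genes above 10 RPKM was itself 0.23 higher in Dox (+) than in Dox (-) on the log2 scale (pseudocount 1 RPKM). After each library was divided by its median ratio to the mean library, the highest-exon ratio of Acta1 became 3.95 and lost its call, while the summed ratio became 4.63.

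The smooth muscle actins moved by other amounts. Acta2 had a highest-exon level of 10218, 12721 and 31696 RPKM in MEF, Dox (-) and Dox (+), a 2.49-fold rise from Dox (-) to Dox (+) that was below the mark. Actg2, the second smooth muscle actin, had 167, 1329 and 2018 RPKM, which is 7.96-fold from MEF to Dox (-) and 1.52-fold from Dox (-) to Dox (+). The ratios of Acta1 thus did not follow those of either smooth muscle actin in both steps. Per length, Acta1 stayed far below Acta2, with summed levels of 254 against 15602 RPKM in Dox (+).

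Actc1 (chr2:114047282-114053548, minus strand) stayed near the floor. Summed over its 6 listed exons it had 5, 13 and 28 reads in MEF, Dox (-) and Dox (+), a summed level of 0.0845, 0.220 and 0.484 RPKM. Its order was that of Acta1, but on the highest exon the ratio of Dox (+) to Dox (-) was 10 to 3 reads, or 3.41-fold (0.878 to 19.3). On summed reads it was 2.20-fold (1.10 to 4.63), and that of Dox (+) to MEF was 5.73-fold (2.18 to 19.0), although intervals of summed reads are too narrow where reads cross junctions. In Dox (+), where Acta1 had 16148 summed reads, Actc1 had 28. The plot of actin exons shows how far apart both genes lie.

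The promoters of both sarcomeric actins are shown because their transcripts stood at such different levels. They are the 250 bases upstream of the RefSeq start (GRCm38.p6), for Acta1 chr8:123894776-123895025 and for Actc1 chr2:114052876-114053125, both on the minus strand and written 5′ to 3′. Capitals mark every E-box (CANNTG, the letters bound by MYOD1 and MITF among others) and every CArG box (the serum response factor motif), searched on both strands.
Acta1 promoter: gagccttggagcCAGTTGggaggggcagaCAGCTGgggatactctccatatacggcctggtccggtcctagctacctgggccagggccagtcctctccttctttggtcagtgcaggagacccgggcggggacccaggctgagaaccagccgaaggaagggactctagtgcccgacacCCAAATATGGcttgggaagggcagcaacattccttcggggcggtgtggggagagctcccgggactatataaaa
Actc1 promoter: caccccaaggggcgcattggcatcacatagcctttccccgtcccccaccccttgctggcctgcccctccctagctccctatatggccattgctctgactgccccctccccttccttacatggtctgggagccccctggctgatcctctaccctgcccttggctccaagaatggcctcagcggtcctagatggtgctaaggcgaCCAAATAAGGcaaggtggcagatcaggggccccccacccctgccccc
Each window held 1 CArG box, at position -73 in Acta1 and -47 in Actc1, a motif found in 1.47% of the 32851 promoter windows of the same length. Acta1 held 2 E-boxes and Actc1 held 0, and 66.2% of all windows hold at least 1. The Actc1 window lies within the GENCODE span of that gene, which reaches chr2:114053548, and shares 12 bases with an annotated exon. Bases upstream of the GENCODE start were not searched, so the contrast in E-boxes holds for the RefSeq starts only. The MITF letters CACGTG and CATGTG were in neither window and in 6.02% and 12.3% of all windows. A match is a string of letters and does not show binding.

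What was listed of the member factors at the head of the programme was at or near the floor in all 3 libraries. Myod1 (chr7:46376474-46379099, plus strand) had 2 reads in MEF and 0 in both other libraries on its 1 listed exon of 956 bp, of 3 annotated. Pax7 (chr4:139737062-139833528, minus strand) had 0 reads in MEF, 0 in Dox (-) and 2 in Dox (+) on its 1 listed exon of 3841 bp, of 12 annotated. Neither gene exceeded 3 reads in any library, so no ratio is given. With the missing exons of Myf5, none of Myod1, Pax7 and Myf5 had a level above the floor, and most of their annotated exons were not listed. Factors outside the members, such as Pax3, are given with the related lists below.

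Myog (chr1:134289989-134292548, plus strand), the factor of terminal differentiation, had 2, 6 and 0 summed reads in MEF, Dox (-) and Dox (+) over its 2 listed exons. Dox (-) was thus the 1 library above the floor, at 0.0944 RPKM. On the 875-bp exon the reads were 2, 4 and 0. The interval of the ratio of Dox (-) to MEF there ran from 0.287 to 22.1 and that of Dox (+) to Dox (-) ended at 1.55, so neither difference was detectable on it at this depth. On summed reads the first ran from 0.536 to 30.4 and the second ended at 0.869, below 1. Summed intervals are too narrow where reads cross junctions.

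Cdh15, or M-cadherin (chr8:122847966-122867397, plus strand), an adhesion molecule of satellite cells and myoblasts, had 0, 12 and 3 summed reads over its 7 listed exons. The reads of Dox (-) were spread over 6 of the exons, with 5 on the 575-bp last exon and 1 or 2 on each of the others. Summed, Dox (-) was 4-fold higher than MEF when MEF was set to 3 reads. With the 0 reads counted in MEF, the interval of that ratio began at 2.78. Dox (-) was 3.91-fold higher than Dox (+) (1.06 to 21.6). On no single exon did the interval of the ratio between Dox (-) and Dox (+) or MEF leave 1, as on the last exon, where its lower end against MEF was 0.916.

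Chrna1 (chr2:73563215-73580338, minus strand) encodes the alpha subunit of the muscle acetylcholine receptor. It had 10, 57 and 69 summed reads in MEF, Dox (-) and Dox (+) over 8 exons, a summed level of 0.0518, 0.295 and 0.365 RPKM. Both knock-in libraries were above MEF and close to each other. On the 3093-bp last exon, which held most of the reads, the counts were 5, 34 and 35. Dox (-) exceeded MEF there 6.80-fold (2.65 to 22.3), and Dox (+) exceeded it 7.16-fold (2.79 to 23.4).

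Between Dox (+) and Dox (-) the same exon gave a ratio of 1.05 (0.638 to 1.74). On the exon with the highest RPKM, of 224 bp, the reads were 13 against 4, a ratio of 3.32 (1.03 to 14.0), but that exon was picked as the highest of 8. All 8 exons of Chrna1 were higher in Dox (-) than in MEF none of them above 1.32 RPKM. Every exon held more reads in Dox (+) than in MEF except the 240-bp exon, with 4 in each.

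The partner subunits of the fetal receptor, Chrnd and Chrng, looked at first like much stronger changes. Both were at 0 reads in MEF and Dox (-) and at a highest-exon level of 17.7 RPKM in Dox (+). Yet 11 of the 12 exons of Chrnd, from 45 to 1490 bp, held exactly 35 reads in Dox (+), as did 9 of the 12 exons of Chrng. All 11 listed exons of Akp3 and all 6 of Alpi, intestinal phosphatase genes on the same stretch of chromosome 1, held 35 as well. The reads did not scale with exon length, as reads that begin within exons would.

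The same 35 reads ran from Alpi at chr1:87100071 to Chrng at chr1:87212694, and the lowest exon of Ecel1 and of Prss56 in between also held 35. Whether alignments that skip over this stretch were counted on it was not tested, and how gaps were treated in the counting is not given in the sources used here. The values of Chrnd and Chrng are therefore not read as levels of these genes. Chrna1 did not share the pattern, since its exons held between 1 and 35 reads in Dox (+) and the longest held the most. Chrnb1, a subunit of fetal and adult receptor alike, had 1491, 625 and 415 summed reads, highest in MEF.

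**Figure D2:**
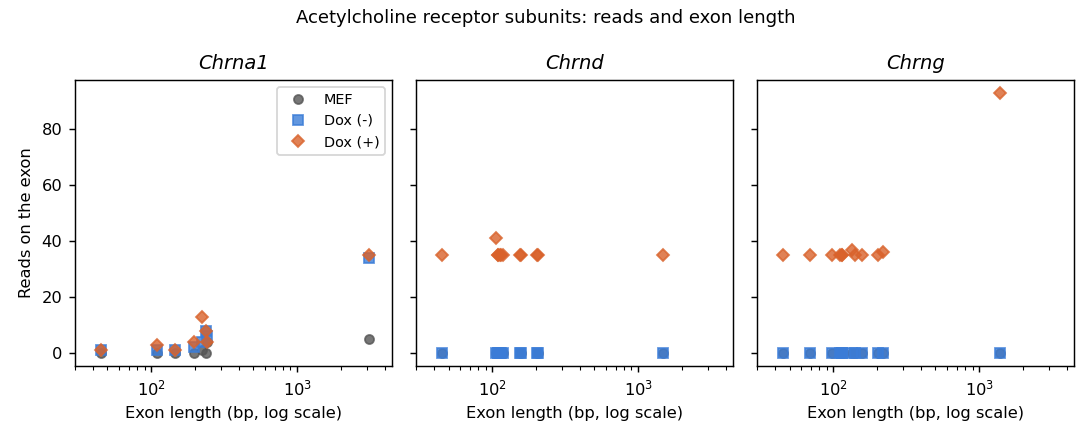
Reads on each listed exon of Chrna1 (8 exons), Chrnd (12) and Chrng (12) against exon length in bp on a log axis, in MEF, Dox (-) and Dox (+). Reads of Chrna1 are most numerous on its longest exon, whereas Chrnd and Chrng lie flat at 35 reads in Dox (+) on nearly all exons and at 0 in both other libraries.

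Myh3 (chr11:67078300-67102291, plus strand), the embryonic myosin heavy chain and an early sign of new fibres, had reads in MEF and Dox (-). Over 24 non-overlapping exons it had 15, 55 and 0 summed reads in MEF, Dox (-) and Dox (+), a summed level of 0.0844, 0.309 and 0 RPKM. Dox (+) was at 0 reads on all 27 listed exons. Set to 3 reads, it was 17.9-fold lower than Dox (-) and 4.89-fold lower than MEF. With the 0 reads counted, the intervals of these summed falls began at 14.1-fold and 3.51-fold. Such intervals are too narrow where reads cross junctions.

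On the 166-bp exon, which had the most reads of Myh3, the counts were 0, 9 and 0. The interval of the Dox (+) to Dox (-) ratio there ended at 0.518, below 1. That exon was picked of 27 for its reads, all in Dox (-), so its interval is no separate support for a fall. Dox (-) had reads on 17 of the 27 exons and MEF on 8, and Dox (-) was higher than MEF on 15 exons and lower on 8. The exons with reads in MEF were mostly others than those in Dox (-), and the summed ratio of 3.67 rests on few reads each.

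The adult and perinatal myosins next to Myh3 on chromosome 11 had reads in Dox (-) too, but of the flat kind. In Dox (-), 25 of the 47 exons of Myh1 held 6 reads and 27 of the 41 exons of Myh4 held 5, over exons of 14 to 390 bp. No exon of either gene, nor of Myh2 or Myh8, held fewer than 2 reads in Dox (-), and MEF held 0 on all. These genes were chosen after their values were seen, and are not read as expressed. Myh3 differed in part, since 10 of its 27 exons held 0 reads in Dox (-). From chr11:67100798 to its 3′ end, however, its exons of 96 to 171 bp held between 4 and 8 reads there. MEF held 0 on them, and these counts are near the flat ones of the neighbours. Whether part of the Myh3 reads in Dox (-) is of the flat kind was not tested.

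Tnnt1 (chr7:4504570-4516382, minus strand), the troponin T of slow skeletal fibres, was after Acta1 the other member above 10 RPKM, and a very short exon set that level. Its highest-exon level was 18.5, 70.4 and 26.5 RPKM in MEF, Dox (-) and Dox (+), from 5, 19 and 7 reads on an exon of 6 bp. That exon, at chr7:4508578-4508583, is the annotated end of the partial transcript Tnnt1-204 and lies inside a coding exon of 110 bp at chr7:4508474-4508583. The 110-bp exon is printed 5′ to 3′ (GENCODE M21, GRCm38), with the 6 bases in capitals.
Tnnt1 exon: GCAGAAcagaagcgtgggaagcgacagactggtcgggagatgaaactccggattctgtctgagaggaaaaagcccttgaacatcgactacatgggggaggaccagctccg
The whole 110-bp exon held 8, 21 and 10 reads, a level of 1.62, 4.24 and 2.07 RPKM. Most of its reads thus touched the first 6 bases, and dividing them by 6 bp gave the high RPKM. The ratio of Dox (-) to MEF was 3.80 on the 6-bp exon and 2.62 on the 110-bp exon.

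Summed over 11 non-overlapping exons, Tnnt1 had 40, 121 and 64 reads, a level of 0.762, 2.31 and 1.25 RPKM. Dox (-) was highest on this measure as well, 3.02-fold above MEF (2.10 to 4.44) and 1.85-fold above Dox (+) (1.35 to 2.54). On the 114-bp exon, which held the most reads, Dox (-) exceeded MEF by 26 reads to 9, or 2.89-fold (1.31 to 7.01). That exon was picked for its reads, which were most numerous in Dox (-). The fall from Dox (-) to Dox (+) on it was from 26 to 14 reads, a ratio of 0.551 (0.266 to 1.09), so it was not detectable on that exon. Of the 22 listed exons 19 were lower in Dox (+), but many of the 22 overlap and hold the same reads.

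**Figure D3:**
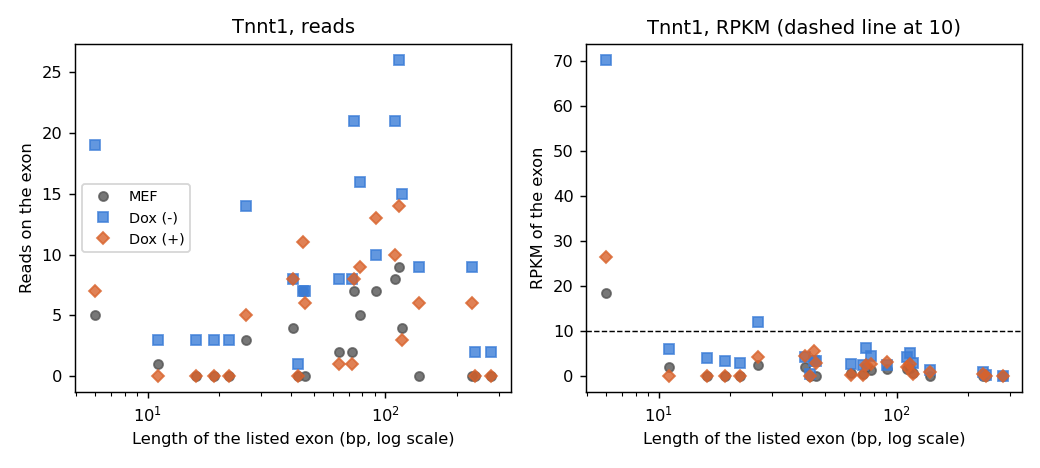
Reads (left) and RPKM (right) of the 22 listed exons of Tnnt1 against exon length in bp on a log axis, in MEF, Dox (-) and Dox (+); the dashed line marks 10 RPKM. The 6-bp exon has 5, 19 and 7 reads like longer exons, but its RPKM of 18.5, 70.4 and 26.5 stands far above the rest.

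Set side by side per length of listed exon, the members fell into 3 levels. The listed exons are only part of those annotated for several members, such as 7 of 14 for Cdh15, 27 of 45 for Myh3 and 22 of 44 for Tnnt1. Acta1 alone was above 10 RPKM on the summed measure in any library. Tnnt1 was near 1 RPKM, and Chrna1, Actc1, Myh3, Cdh15, Myog, Myod1 and Pax7 were below 0.5 RPKM in every library. Above 3 summed reads there were 5 members in MEF, 7 in Dox (-) and 4 in Dox (+), of 9. The same share over all genes is not given here, so these counts are not read as a gain or loss of the programme.

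From MEF to Dox (-), 7 of the 8 members with reads in either library had the higher summed level in Dox (-), Myod1 being the exception, beside 57.6% of all genes with reads. From Dox (-) to Dox (+), 4 of 8 were higher (Acta1, Actc1, Chrna1 and Pax7) and 4 lower (Myog, Cdh15, Myh3 and Tnnt1), beside 51.1% of genes higher and 48.9% lower. From MEF to Dox (+), 6 of 9 were higher and 3 lower (Myod1, Myog and Myh3), beside 61.7% and 38.3% of genes. In this last comparison the directions of Myod1, Myog, Pax7 and Cdh15 rest on no more than 3 reads, which is within the floor. The same holds for Myod1 from MEF to Dox (-) and for Pax7 from Dox (-) to Dox (+). The median log2 fold change (highest exon, pseudocount 1 RPKM) over the 9 members was 0 from Dox (-) to Dox (+) and 0.35 from MEF to Dox (-). The medians over all genes were 0.01 and 0.06. In bulk RNA, a few cells with much of a transcript cannot be told apart from many cells with little of it.

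**Figure D4:**
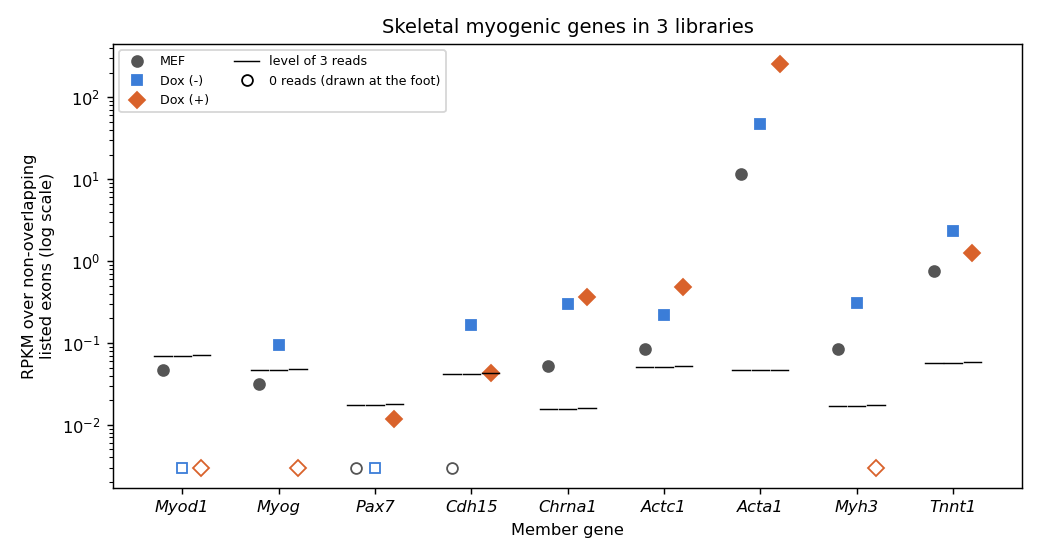
Summed RPKM (reads over non-overlapping listed exons, log axis) of the 9 listed members in MEF, Dox (-) and Dox (+); short lines mark the level that 3 reads give for that gene, and open symbols at the foot stand for 0 reads. Acta1 rises to 254 RPKM in Dox (+), Tnnt1 lies between 0.762 and 2.31 RPKM, and Myod1, Myog and Pax7 lie at or under the line apart from Myog in Dox (-).

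**Figure D5:**
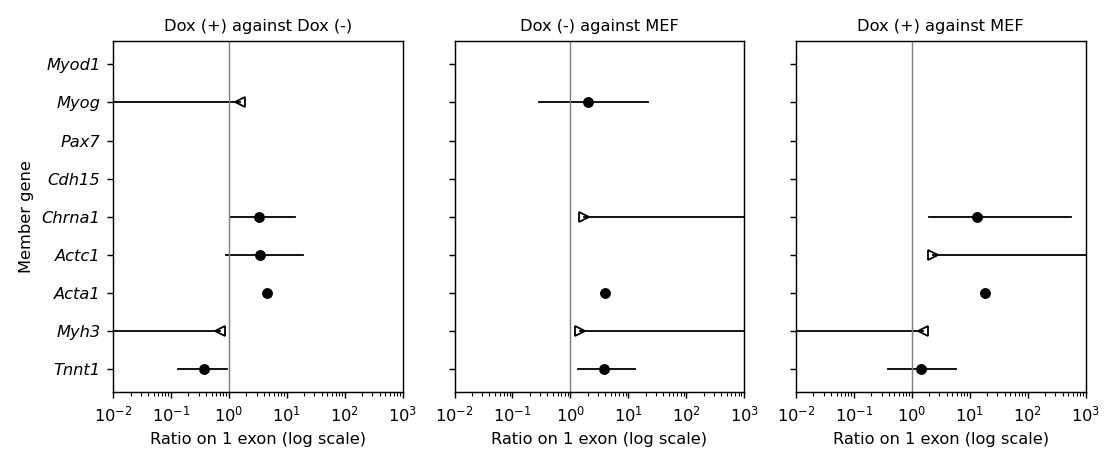
Ratio between libraries, for each listed member on a log axis, on whichever of its exons reached the largest RPKM in the pair, with 95% counting intervals; arrowheads mark the bounded end of an interval where 1 library had 0 reads, and members with at most 3 reads on that exon are left blank. Acta1 lies right of 1 in each panel, at 4.61, 3.93 and 18.1, and its interval is narrower than its symbol.

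The rest of the muscle programme was described with lists of related genes. Of 15 listed myogenic factors and partners, 9 exceeded 10 RPKM, and of these 1 was called lower in Dox (+) than in Dox (-) and 0 higher, beside 5.41% and 1.64% of all genes. The lower one was Meox1, a homeobox factor of the somites, at 19.2, 17.7 and 2.32 RPKM in MEF, Dox (-) and Dox (+). Of those that did not exceed 10 RPKM, Pax3 had 12, 179 and 214 summed reads, Eya2 had 24, 263 and 77, and Meox2 had 8, 75 and 25. Six4 had 655, 1551 and 1231, and Lbx1 and Msc had at most 8. The MEF2 factors, which work with MYOD1 and are widely expressed, had summed levels in Dox (-) of 66.0 RPKM for Mef2a, 9.31 for Mef2c and 39.4 for Mef2d, without a call.

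Among 11 genes that restrain the myogenic factors, 10 were tested, and 3 were called higher in Dox (-) than in MEF, beside 8.26% of all genes. None was called between Dox (+) and Dox (-). Twist2, a basic helix-loop-helix repressor, had 8.85, 56.8 and 111 RPKM. Id4, an inhibitor that pairs with E proteins, had 3.15, 18.8 and 18.6 RPKM, and Hey1, a NOTCH target, had 1.08, 17.5 and 4.60 RPKM. Id1 had 49.6, 142 and 70.3 RPKM, without a call.

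Of 15 myoblast surface and fusion genes, 10 were tested. From MEF to Dox (-) 4 were called higher, beside 8.26% of all genes, and from Dox (-) to Dox (+) 1 was called lower, beside 5.41%. Itga7, the laminin receptor of muscle, had 7.96, 64.0 and 78.8 RPKM, and Jam2 had 8.67, 41.8 and 118 RPKM. Vcam1, an adhesion molecule of many cell types, had 49.3, 258 and 216 RPKM. Heyl, a NOTCH target, was the one that fell, from 13.0 RPKM in Dox (-) to 2.98 in Dox (+), with 0 in MEF. Nes, an intermediate filament of several progenitor cells, had 36.5, 121 and 207 RPKM and was not called in either step. Mymk (myomaker), needed for fusion, had 0, 3 and 31 summed reads and was chosen after its values were seen.

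Of the 10 genes of the neuromuscular junction, 6 were tested and 2 called higher in Dox (+) than in Dox (-), beside 1.64% of all genes, and they are Chrnd and Chrng with the flat reads described above. From MEF to Dox (-), 1 of 4 tested was called higher, beside 8.26% of all genes, namely Rapsn, which clusters the receptor. Rapsn had 1.96, 16.0 and 4.31 RPKM, but its summed level was 1.22, 2.91 and 3.18 RPKM. Agrn, the nerve-derived organizer that many cells also make, had 99.1, 316 and 191 RPKM.

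Among 36 sarcomere and fibre genes, 10 exceeded 10 RPKM. From Dox (-) to Dox (+), 1 was called higher (Tnnt2) and 2 lower (Tnni2 and Casq2) on the highest exon, of 9 tested, beside 1.64% and 5.41% of all genes. On summed reads 0 were called in either direction. From MEF to Dox (-), 4 of 10 tested were called higher on the highest exon (Des, Tnnt2, Tnni2 and Casq2), beside 8.26% of all genes. On summed reads 2 of 5 were, beside 5.96%. Des (desmin), an intermediate filament of every muscle type, had 11.6, 571 and 1805 RPKM, which is 49.2-fold from MEF to Dox (-) and 3.16-fold from Dox (-) to Dox (+). Tnnt2, the cardiac troponin T that embryonic skeletal muscle also makes, had a summed level of 1.55, 16.2 and 48.7 RPKM. Its call rests on an exon of 9 bp with 27 reads in Dox (-) and 106 in Dox (+), and the summed ratio was 3.01. Both rose over the libraries in the order of Acta1.

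Tnni2, the fast troponin I, went the other way, with 7, 170 and 8 summed reads and the most in Dox (-), the library that also held the most reads of Myh3, Cdh15 and Tnnt1. Casq2, a calcium store protein of slow and cardiac fibres, had 16, 107 and 22 summed reads. Other defining markers of contracting skeletal muscle had low summed levels in every library. Ckm, the muscle creatine kinase, was at 0 reads in all 3, and Mylpf, Tnnt3, Neb and Actn3 had summed levels between 0.02 and 4.61 RPKM. In Dox (+), where Acta1 was highest, the largest of these was Actn3 at 3.36 RPKM. Mylpf was highest in MEF, where its highest-exon level of 13.0 RPKM passed the 10 RPKM mark.

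Most heart contractile markers were low as well, whereas some heart transcription factors had more reads in both knock-in libraries than in MEF. Nkx2-5 was at 0 reads in every library, Myh6 had at most 3 and Myl7 at most 2. Tnni3 had 84, 171 and 57 summed reads, and Nppb, a natriuretic peptide, had 2.79, 18.0 and 43.5 RPKM. Tbx5 had 9, 338 and 409 summed reads, Tbx20 had 6, 135 and 77, Hand2 had 37, 453 and 324, and Gata4 had 9, 41 and 84. These factors also act outside the heart, and none reached 10 RPKM. Of 14 heart genes, 1 was called, Nppb in the comparisons with MEF, where 8.26% and 6.55% of all genes were called higher.

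Most smooth muscle and myofibroblast genes were abundant, and 8 of 10 exceeded 10 RPKM. Besides Acta2 and Actg2, Tagln had 9298, 7510 and 15514 RPKM and Cnn1, or calponin, had 425, 850 and 1095 RPKM. Myh11, the smooth muscle myosin, had 1.75, 129 and 108 RPKM, thus far higher in both knock-in libraries than in MEF and similar between them. Lower in Dox (+) than in Dox (-) were Smtn, at 147 and 82.1 RPKM, and Lmod1, at 67.4 and 34.6 RPKM. Myocd, the coactivator of the smooth muscle programme, had 6, 112 and 13 summed reads. Of 8 genes tested, 2 were called higher in Dox (-) than in MEF (Actg2 and Myh11), beside 8.26% of all genes, and 0 between Dox (+) and Dox (-). Whether these cells made the Acta1 transcript was not tested.

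The 5 genes whose levels over the 3 libraries lay closest to those of Acta1 were Ramp1, Esm1, Slc16a11, Slc25a18 and 3300005D01Rik, by Euclidean distance of centred log2(RPKM + 1) among 13585 genes. The distances were between 0.12 and 0.23. Ramp1, a receptor partner, had 1.13, 6.24 and 35.1 RPKM in MEF, Dox (-) and Dox (+), and Esm1 had 1.45, 8.57 and 38.0 RPKM. With 3 libraries, likeness means only that the 2 steps had about the same size.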

How the data were processed

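RNA was measured in 1 library each of MEF, Dox (-) and Dox (+). The authors prepared poly(A) libraries, aligned the reads to mm10 with TopHat2 2.0.10, counted reads on Ensembl exons with bedtools and deposited 1 RPKM per exon and library. The deposited table had 1 column left unused, because its name matched no library, and PMel was not analysed here. Exons were assigned to genes with GENCODE M21, which left out 6586 of 234718, and genes of coding, lincRNA and pseudogene type were kept.

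Reads were recovered from RPKM, exon length and a whole-number divisor between 20 and 80 per library. Of the values from 0.5 to 200 reads, 96.9% to 97.2% came out whole within 0.02. Depth was thus about 45000000 reads in MEF and Dox (-) and 44000000 in Dox (+), and precision is given as exact Poisson and binomial intervals at 95%. For 2 Acta1 exons and 1 Myog exon the annotated length did not give whole reads, so their reads are rounded.

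Calls needed more than 10 RPKM in 1 library and more than 4-fold. The study applied these cut-offs to exons and to MEF against melanocytes, whereas here they were applied to genes and pairs of MEF libraries. With 1 library per group no test was run. Members and gene lists were chosen with earlier results of these data known. Named genes are the members, up to 4 genes per list with the largest log2 change above 10 RPKM, and cell type markers. Some further list genes, such as Pax3 and Mymk, are named outside this rule. Scripts (Python 3.11.15, scipy 1.17.1, bedtools 2.31.1) were tested on simulated data. Alternatives covered threshold, fold, pseudocount, scaling and the definition of a gene's level.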

Additional observations from a re-analysis of the deposited data

How the results depend on the processing

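No paired analysis was possible because each group had 1 library. The comparisons planned with PMel were not run. Exons of at least 50 bp, and summed reads less those common to every exon, were chosen after seeing the data. The count of members called between Dox (+) and Dox (-), 1 at 10 RPKM, became 2 at 1 RPKM or above 2-fold, 4 without a threshold, and 0 above 8-fold or with rescaled libraries. From MEF to Dox (-) the count of 0 became 2 without a threshold or above 2-fold, and 1 on summed reads. From MEF to Dox (+) the count of 1 became 2 at 1 RPKM and 7 without a threshold. Without a threshold, genes with 2 reads are called. The share of all genes called is given only for the main rule and for summed reads. Counts at the other settings are therefore not read as a result about the members. The median log2 fold change from MEF to Dox (-), 0.35, became 0.85 with a pseudocount of 0.1, 0.10 with 5, and 0.22 on summed reads, with or without those common to every exon. That from MEF to Dox (+), 0.41, became 0.52 with a pseudocount of 0.1, 0.093 with 5, 0.24 after rescaling, and 0.060 on summed reads, with or without those common to every exon. Apart from the alternatives' own construction, the cause was not tested. Of 80 single-gene alternatives with a bounded counting interval, 74 stayed within it, and the 6 that moved were all Acta1, with its direction kept. For 136 others a library at 0 reads left the interval unbounded, so they say nothing of stability, and they shifted by up to 2.71 on the log2 scale, 1 of them to the other sign. Depth limits Myod1, Pax7, Myog and Cdh15 most.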
